A study of Mus musculus with 6 samples.

Results

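The genes described here are 10 transcription factors on opposite sides of epithelial-mesenchymal transition (EMT), the switch by which epithelial cells lose their junctions and take on a mesenchymal state. They were chosen by symbol: Snai1, Snai2, Twist1, Twist2, Zeb1, Zeb2 and Prrx1 on the mesenchymal side, and Ovol1, Ovol2 and Grhl2 on the epithelial side. All 10 listed symbols were among the 18197 gene symbols of the count table, and all 10 had enough counts to be tested. The series profiled cancer-associated fibroblasts, sorted by flow cytometry from mammary tumours that the polyoma middle T oncogene (PyMT) induced in C57BL/6 mice and harvested at 16 to 20 weeks. RNA-seq was run on 3 libraries labelled mPGES-1 KO and 3 libraries labelled WT, and mice of both groups carried the oncogene. The knockout is of microsomal prostaglandin E synthase-1 (mPGES-1), the enzyme that makes prostaglandin E2. The sources used here do not give the promoter that drives the oncogene, the way the knockout allele was made, the sort markers, or whether a library is 1 animal or a pool.

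Ptges, the gene of mPGES-1, was at 186, 136 and 128 CPM (reads of the gene as a share of the library, on a scale common to all libraries) in the libraries labelled mPGES-1 KO, against 31.8, 19.2 and 27.9 CPM in those labelled WT. That is the opposite of what loss of the transcript would give, and counts summed over a gene cannot show whether part of it is missing, so the groups are named by their labels and every direction rests on them. Total counts were 23013498 to 37249186 in libraries with the mPGES-1 KO label and 37432510 to 43648450 in those labelled WT. In edgeR's quasi-likelihood test with Benjamini-Hochberg adjustment, 456 of 16543 genes were called at an adjusted p under 0.05, which is 2.76%, with 1.20% up and 1.56% down under the mPGES-1 KO label. Without mPGES-1 KO replicate 2 or without mPGES-1 KO replicate 3 the same test called 0 genes, and without WT replicate 2 it called 1. In that order, 2574 of 17758, 2975 of 17781 and 2352 of 17322 tested genes then had an unadjusted p under 0.05. DESeq2 on all libraries called 2235 and limma-voom 1944.

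In epithelial cells SNAIL (Snai1), SLUG (Snai2), ZEB1 and ZEB2 are zinc finger repressors that bind E-box sequences in genes of cell junctions, E-cadherin among them, and the TWIST proteins are basic helix-loop-helix factors that pair with E proteins. OVOL1, OVOL2 and GRHL2 are expressed in epithelia and act against this programme, and mutual repression between ZEB1 and both OVOL2 and GRHL2 is well described. Fibroblasts express the mesenchymal factors as part of their own identity, and PRRX1 is a homeobox factor of limb and craniofacial mesenchyme that also marks adult fibroblasts. In these data 3 of the 10 factors passed the test, as did 2.76% of all tested genes. For each of these 3 the groups did not overlap, which held for 27.9% of all tested genes. Ovol1 rose 15.9-fold, while Zeb2 and Prrx1 fell, 3.52-fold and 3.88-fold by the ratio of mean CPM. The log2 fold change was negative for 7 of 7 mesenchymal factors and positive for 3 of 3 epithelial factors.

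The SNAI and OVOL families sit on opposite sides, yet both open with the short SNAG repressor motif, which recruits corepressors. The first 27 coding bases of these members are shown because they make that kinship visible; they are read from the start codon in GENCODE M21 transcripts, and capitals mark the 14 bases that all of them share.
Snai1: ATGCCgcgctccTTccTGGTcAgGAag
Snai2: ATGCCgcgctccTTccTGGTcAaGAaa
Ovol1: ATGCCtcgcgcgTTccTGGTgAaGAag
Ovol2: ATGCCcaaagtcTTttTGGTgAaGAgg
Snai1 and Snai2 share 25 of these 27 bases, Snai1 and Ovol1 share 22, and Ovol1 and Ovol2 share 18. Snai1 and Ovol2 lie on chromosome 2, Snai2 on chromosome 16 and Ovol1 on chromosome 19.

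Promoters were searched for the E-box letters CACCTG, bound by SNAI and ZEB factors, for CCGTTA, bound by OVOL1, and for AACCGG, part of the site bound by GRHL factors, each on both strands, counted separately even where a pair of them shares bases. The windows are RefSeq promoters of GRCm38.p6, each 300 bases long, with 250 before and 50 after the start. Of 32851 windows, 20.2% held CACCTG, 2.76% held CCGTTA and 6.83% held AACCGG. Counted per gene over any of its windows, 21.3% of the 11300 tested genes with a window held CACCTG. Of genes called higher under the mPGES-1 KO label 142 had a window, and 32.4% of these held it. Of those called lower 195 had a window, and 18.5% of these held it. Among 24 epithelial junction and polarity genes, 18 had a window and 15 of these, or 83.3%, held CACCTG. That list is of genes that SNAI and ZEB factors hold down or OVOL and GRHL2 factors keep up. Its share is therefore not independent of how the list was chosen. These counts describe letters in a window, not binding. The windows of Epcam, Krt8 and Elf3 are printed because these epithelial genes rose, that of Snai1 because it was the 1 member window with an E-box among 6 members in the table (Snai1, Twist1, Twist2, Zeb2, Prrx1 and Ovol2), and that of Prrx1 because the gene fell. Each reads 5′ to 3′ on the strand of its gene, with the searched letters in capitals (CACCTG or its complement CAGGTG, and in Elf3 also AACCGG).
Epcam, chr17:87635729-87636028, plus strand: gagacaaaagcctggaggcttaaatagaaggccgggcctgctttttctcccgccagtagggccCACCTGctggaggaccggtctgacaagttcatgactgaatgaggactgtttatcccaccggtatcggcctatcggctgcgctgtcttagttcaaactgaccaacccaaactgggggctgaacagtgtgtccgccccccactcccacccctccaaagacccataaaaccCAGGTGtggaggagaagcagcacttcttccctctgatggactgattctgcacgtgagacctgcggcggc
Krt8, chr15:102004293-102004592, minus strand: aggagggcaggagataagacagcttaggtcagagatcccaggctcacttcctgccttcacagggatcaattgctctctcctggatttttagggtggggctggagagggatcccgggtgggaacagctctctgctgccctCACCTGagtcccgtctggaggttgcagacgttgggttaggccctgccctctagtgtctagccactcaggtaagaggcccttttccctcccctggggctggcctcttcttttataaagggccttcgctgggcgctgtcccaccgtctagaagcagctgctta
Elf3, chr1:135258423-135258722, minus strand: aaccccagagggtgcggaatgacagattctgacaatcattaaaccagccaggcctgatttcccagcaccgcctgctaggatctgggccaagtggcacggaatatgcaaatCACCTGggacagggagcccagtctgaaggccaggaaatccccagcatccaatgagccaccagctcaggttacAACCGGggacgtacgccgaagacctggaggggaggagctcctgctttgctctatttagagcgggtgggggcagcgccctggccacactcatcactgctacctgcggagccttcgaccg
Snai1, chr2:167537945-167538244, plus strand: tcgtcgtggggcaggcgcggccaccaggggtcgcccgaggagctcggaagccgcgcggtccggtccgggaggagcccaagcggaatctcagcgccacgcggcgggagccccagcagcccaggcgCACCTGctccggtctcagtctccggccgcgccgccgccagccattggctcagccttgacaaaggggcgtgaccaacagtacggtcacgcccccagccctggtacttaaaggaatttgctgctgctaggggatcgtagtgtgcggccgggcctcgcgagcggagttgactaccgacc
Prrx1, chr1:163313601-163313900, minus strand: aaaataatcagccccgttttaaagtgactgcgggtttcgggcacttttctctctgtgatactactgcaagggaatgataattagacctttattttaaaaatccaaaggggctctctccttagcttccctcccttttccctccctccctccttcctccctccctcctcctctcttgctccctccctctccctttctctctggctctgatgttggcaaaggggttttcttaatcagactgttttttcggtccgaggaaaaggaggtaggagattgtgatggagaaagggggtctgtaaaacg
In Epcam the E-boxes begin 187 and 19 bases before the start, in Krt8 111 bases before it, in Elf3 140 and in Snai1 126. None of the 3 searched letter strings was in the Prrx1 window or in the 4 Zeb2 windows. In the other lists CACCTG was in 4 of 9 other epithelial factors, in 1 of 10 mesenchymal genes, in none of 8 other EMT-linked factors and in none of 12 corepressor and turnover genes with a window. CCGTTA was in 1 of the 8 EMT-linked factors, a gene absent from the count table. It was also in 1 of 10 mesenchymal genes and in 1 of 18 junction genes, Crb3. None of the 9 other epithelial factors or the 12 corepressor and turnover genes held it. AACCGG was in 5 of the 18 junction genes and in 1 of the 9 other epithelial factors. No mesenchymal, other EMT-linked, or corepressor and turnover gene with a window held it. Of genes with a window, 12.2% of those tested, 16.9% of those called higher and 8.72% of those called lower held AACCGG. For CCGTTA these shares were 4.14%, 1.41% and 3.59%.

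Ovol1, the zinc finger repressor of epithelial progenitors, was the epithelial member that passed the test. The gene spans chromosome 19 positions 5549136 to 5560646, minus strand (GRCm38, GENCODE M21). It had 3368, 4447 and 5392 counts in mPGES-1 KO replicates 1, 2 and 3, against 294, 284 and 558 counts in WT replicates 1, 2 and 3. Scaled to library size that was 123, 186 and 153 CPM in mPGES-1 KO, against 6.69, 7.14 and 15.3 CPM in WT libraries. The lowest library labelled mPGES-1 KO was far above the highest labelled WT, and the spread within each group was small beside the gap. It averaged 154 ± 31.6 CPM in mPGES-1 KO and 9.71 ± 4.85 CPM in WT libraries (SD, n = 3 each). In log2 terms edgeR put the change at 3.99 ± 0.43 (fold change ± SE, adjusted p = 0.0143). The adjusted p was 0.0881 without mPGES-1 KO replicate 2, 0.063 without mPGES-1 KO replicate 3 and 0.0615 without WT replicate 2, while over 13 alternatives the log2 fold change stayed between 3.82 and 4.47. Exons of antisense and pseudogene transcripts on the opposite strand cover 22% of the exonic bases of Ovol1, and the reads carry no strand, so part of its counts could belong to those.

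Ovol2, its paralog, was barely detected in the libraries labelled WT. It had 117, 121 and 183 counts in mPGES-1 KO replicates 1, 2 and 3, against 0, 35 and 0 counts in WT replicates 1, 2 and 3. The 3 libraries labelled mPGES-1 KO were close together, at 4.28, 5.07 and 5.18 CPM, and the 1 library labelled WT with reads was at 0.879 CPM. A count of 0 allows up to 0.0683 CPM in WT replicate 1 and 0.0823 CPM in WT replicate 3, at 3 counts each and for counting error only. The groups did not overlap, but at 4.03 ± 2.08 on the log2 scale the difference missed the threshold (adjusted p = 0.356, edgeR), and without WT replicate 2 the fitted value was 10.37 (adjusted p = 0.158), set by a group at 0. An antisense transcript covers 17% of its exonic bases.

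Grhl2, a grainyhead-like activator of E-cadherin and claudin genes, lies on chromosome 15 from 37233036 to 37363569. It was at 18.1, 31.7 and 34.7 CPM across mPGES-1 KO replicates 1, 2 and 3, against 16.3, 5.03 and 3.32 CPM in WT replicates 1, 2 and 3. The groups did not overlap, though mPGES-1 KO replicate 1 and WT replicate 1 were nearly level. It averaged 28.1 ± 8.84 CPM in mPGES-1 KO and 8.21 ± 7.05 CPM in WT libraries (SD, n = 3 each), and the log2 fold change of 1.78 ± 0.68 did not pass (adjusted p = 0.207, edgeR). Limma-voom, which weights libraries by their quality, gave 2.49 with an adjusted p = 0.0264. Without WT replicate 1 the value was 2.77 (adjusted p = 0.0512).

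Zeb2, a zinc finger homeobox repressor, fell in the libraries labelled mPGES-1 KO. The gene spans chromosome 2 positions 44983632 to 45117395, minus strand, and 3.3% of its exonic bases overlap other genes. It had 1300, 764 and 1868 counts in mPGES-1 KO replicates 1, 2 and 3, or 47.5, 32.0 and 52.8 CPM, against 5410, 7751 and 5398 counts in WT replicates 1, 2 and 3, or 123, 195 and 148 CPM. Every library labelled mPGES-1 KO was below every library labelled WT. It averaged 44.1 ± 10.8 CPM in mPGES-1 KO and 155 ± 36.4 CPM in WT libraries (SD, n = 3 each). In log2 terms edgeR put the change at -1.82 ± 0.31 (adjusted p = 0.0309). Of the 6 fits that leave out 1 library, the call held without WT replicate 1 (adjusted p = 0.0339). It was lost without mPGES-1 KO replicates 1, 2 or 3 (0.0793, 0.128 and 0.0875) and without WT replicates 2 or 3 (0.136 and 0.0799).

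Zeb1, the other member of that family, had 1568, 858 and 958 counts in mPGES-1 KO replicates 1, 2 and 3, against 2316, 1990 and 2455 counts in WT replicates 1, 2 and 3. On the CPM scale the averages were 40.1 ± 15.5 in mPGES-1 KO and 56.7 ± 9.33 in WT libraries (SD, n = 3 each). The groups overlapped, since mPGES-1 KO replicate 1 (57.3 CPM) lay above WT replicate 1 (52.7 CPM) and WT replicate 2, and the log2 fold change was -0.50 ± 0.36 (adjusted p = 0.522, edgeR). Leaving out mPGES-1 KO replicate 1 gave -0.84 (adjusted p = 0.277), and leaving out mPGES-1 KO replicate 3 gave -0.28 (adjusted p = 0.772). Per exonic length, Zeb2 made up 29.9%, 31.4% and 50.1% of the summed Zeb1 and Zeb2 level in the libraries labelled mPGES-1 KO, against 54.6%, 66.7% and 53.1% in those labelled WT. The share of Zeb2 was lower in each library labelled mPGES-1 KO, by 21.0 percentage points in the mean, with a two-sided exact permutation p = 0.1, the smallest that 3 against 3 libraries allow. Over the 4 paralog pairs compared in this way its adjusted p was 0.4.

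Prrx1 fell about as far as Zeb2. The gene spans chromosome 1 positions 163245119 to 163313710, minus strand, with no exonic base shared with another annotated gene. It had 1580, 736 and 1173 counts in mPGES-1 KO replicates 1, 2 and 3, or 57.7, 30.8 and 33.2 CPM, against 6127, 7011 and 5715 counts in WT replicates 1, 2 and 3, or 139, 176 and 157 CPM. The groups were wide apart, and the libraries labelled WT lay close together. It averaged 40.6 ± 14.9 CPM in mPGES-1 KO and 157 ± 18.4 CPM in WT libraries (SD, n = 3 each). In log2 terms edgeR put the change at -1.96 ± 0.32 (adjusted p = 0.0292). The adjusted p was 0.128 without mPGES-1 KO replicate 2, 0.101 without mPGES-1 KO replicate 3, 0.126 without WT replicate 2 and 0.0746 without WT replicate 3.

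**Figure D1:**
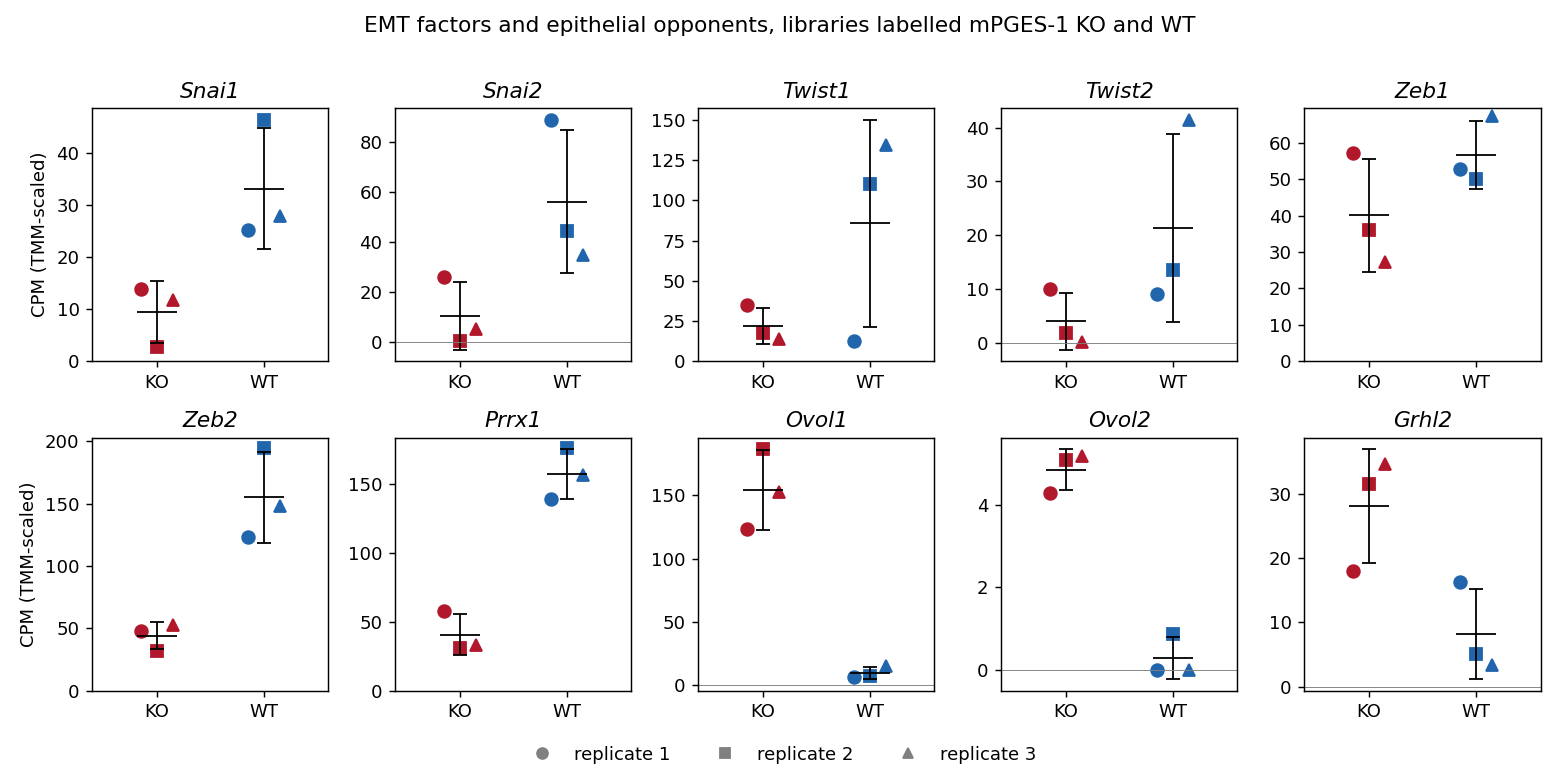
CPM on TMM-scaled totals of the 10 factors in each library, 1 panel per gene with its own axis, libraries labelled mPGES-1 KO in red at the left and WT in blue at the right, marker shape by replicate number; the black line is the mean and the bar the SD of 3 libraries. Ovol1, Ovol2 and Grhl2 lie higher in mPGES-1 KO, Snai1, Snai2, Zeb2 and Prrx1 lower, and Twist1, Twist2 and Zeb1 overlap.

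The SNAI pair was lower in every library labelled mPGES-1 KO, without passing the test. Snai1 was at 13.8, 2.68 and 11.8 CPM across mPGES-1 KO replicates 1, 2 and 3, against 25.2, 46.5 and 28.0 CPM in WT replicates 1, 2 and 3 (log2 fold change -1.81 ± 0.64, adjusted p = 0.177, edgeR). Limma-voom gave -2.61 with an adjusted p = 0.0493. Snai2 was at 25.9, 0.335 and 5.06 CPM in mPGES-1 KO, against 88.8, 44.5 and 34.9 CPM in WT libraries (-2.43 ± 1.18, adjusted p = 0.323, edgeR). Without mPGES-1 KO replicate 1 its log2 fold change was -4.35 (adjusted p = 0.139), and limma-voom on all libraries also gave -4.35 (adjusted p = 0.0568). Snai2 varied widely within the libraries labelled mPGES-1 KO, where replicate 2 held 8 counts and replicate 1 held 709. The share of Snai2 in the summed SNAI level ran from 9.11% to 60.1% in mPGES-1 KO and from 43.4% to 73.9% in WT libraries (exact permutation p = 0.3).

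The TWIST pair overlapped between the groups. Twist1, which shapes cranial mesenchyme and is a classical EMT inducer, was at 34.7, 17.8 and 13.5 CPM across mPGES-1 KO replicates 1, 2 and 3, against 12.6, 110.5 and 134 CPM in WT replicates 1, 2 and 3. WT replicate 1 stood apart from the other WT libraries and was the lowest of all 6. The log2 fold change was -1.96 ± 0.79 (adjusted p = 0.233, edgeR), and without WT replicate 1 it was -2.44 with an adjusted p = 0.0426. Twist2, a related factor of dermal mesenchyme, was at 10.05, 1.93 and 0.141 CPM in mPGES-1 KO, against 9.12, 13.5 and 41.4 CPM in WT libraries, and did not pass (-2.40 ± 1.30, adjusted p = 0.380, edgeR). Its log2 fold change was -4.38 without mPGES-1 KO replicate 1 and -1.49 without WT replicate 3. An antisense transcript covers 46.5% of the exonic bases of Twist2, so the origin of its reads is uncertain.

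**Figure D2:**
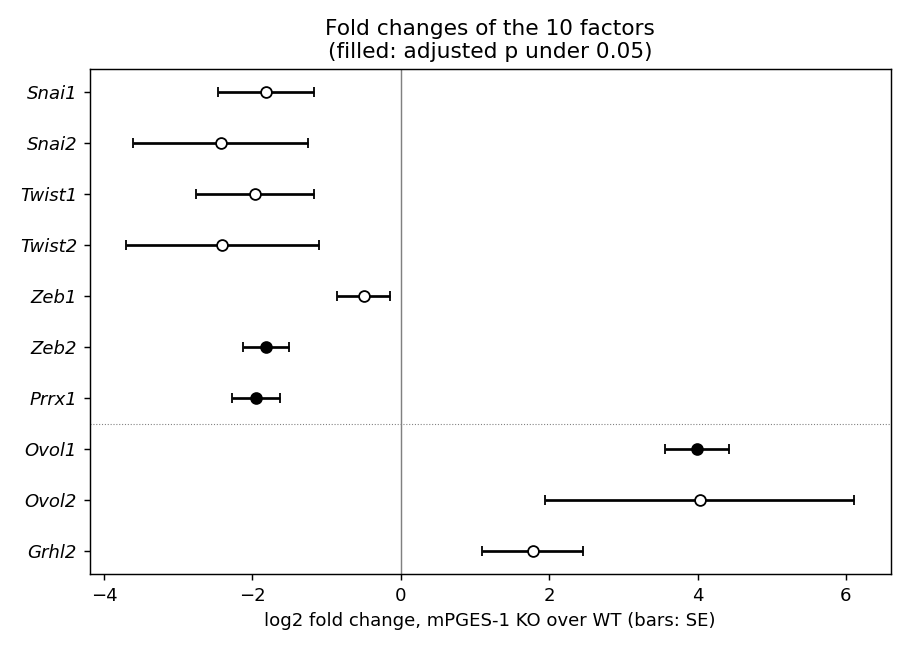
Log2 fold change of each factor, mPGES-1 KO over WT, with its SE from the edgeR fit; filled points passed an adjusted p of 0.05. Zeb2 (-1.82), Prrx1 (-1.96) and Ovol1 (3.99) are filled, and the dotted line divides the mesenchymal factors above from the epithelial ones.

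Counted together, 2 of 7 mesenchymal factors fell and 1 of 3 epithelial factors rose, where 1.56% and 1.20% of all tested genes were called in those directions. The groups did not overlap for 7 of the 10 factors, against 27.9% of all tested genes. Of these 7, 4 were lower in mPGES-1 KO (15.7% of all tested genes) and 3 were higher (12.2%). The median log2 fold change was -1.96 on the mesenchymal side and 3.99 on the epithelial side, against -0.04 over all tested genes. In a sorted bulk sample, fewer cells of a type and less RNA per cell cannot be told apart.

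Levels between genes were compared as CPM per kilobase of exon. That length joins the exons of all annotated transcripts of a gene, 19942 bases for Zeb2 and 11066 for Prrx1, against 1628 for Twist1. The order, the paralog shares and the summed levels rest on this choice. By mean CPM alone in WT libraries, Prrx1 (157) and Zeb2 (155) lay above Twist1 (85.8), Snai2 (56.1) and Snai1 (33.2). In the libraries labelled mPGES-1 KO, Ovol1 had the highest level of the 10, at 44.1 ± 9.06 CPM per kilobase (SD, n = 3), and no library of the next gene, Twist1 (13.5 ± 6.88), reached its range. Below it Twist1, Snai1, Snai2, Zeb1, Prrx1, Grhl2, Ovol2, Zeb2 and Twist2 followed in that order, and each neighbouring pair overlapped. In the libraries labelled WT the order was Twist1 (52.7 ± 39.6), Snai2 (27.7 ± 14.2), Snai1 (20.5 ± 7.15), Prrx1 (14.2 ± 1.66), Zeb2 (7.79 ± 1.82), Twist2, Zeb1, Ovol1 (2.78 ± 1.39), Grhl2 and Ovol2. There the gaps from Prrx1 to Zeb2, from Zeb1 to Ovol1 and from Ovol1 to Grhl2 were free of overlap. Ovol1 thus stood below every mesenchymal factor on average in WT and above every one in mPGES-1 KO libraries.

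Summed per exonic length, the mesenchymal factors reached 59.0, 21.2 and 26.4 CPM per kilobase in mPGES-1 KO replicates 1, 2 and 3, against 94.0, 153 and 158 in WT replicates 1, 2 and 3. The epithelial factors reached 39.4, 59.5 and 50.2 CPM per kilobase in the libraries labelled mPGES-1 KO, against 3.81, 3.05 and 4.77 in those labelled WT. The ratio of the mesenchymal to the epithelial sum was 1.497, 0.357 and 0.527 in mPGES-1 KO and 24.7, 50.4 and 33.2 in WT libraries. The highest ratio among mPGES-1 KO libraries was below the lowest among WT libraries. Since the members were grouped with these results known, the ratio is a description and was given no test.

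**Figure D3:**
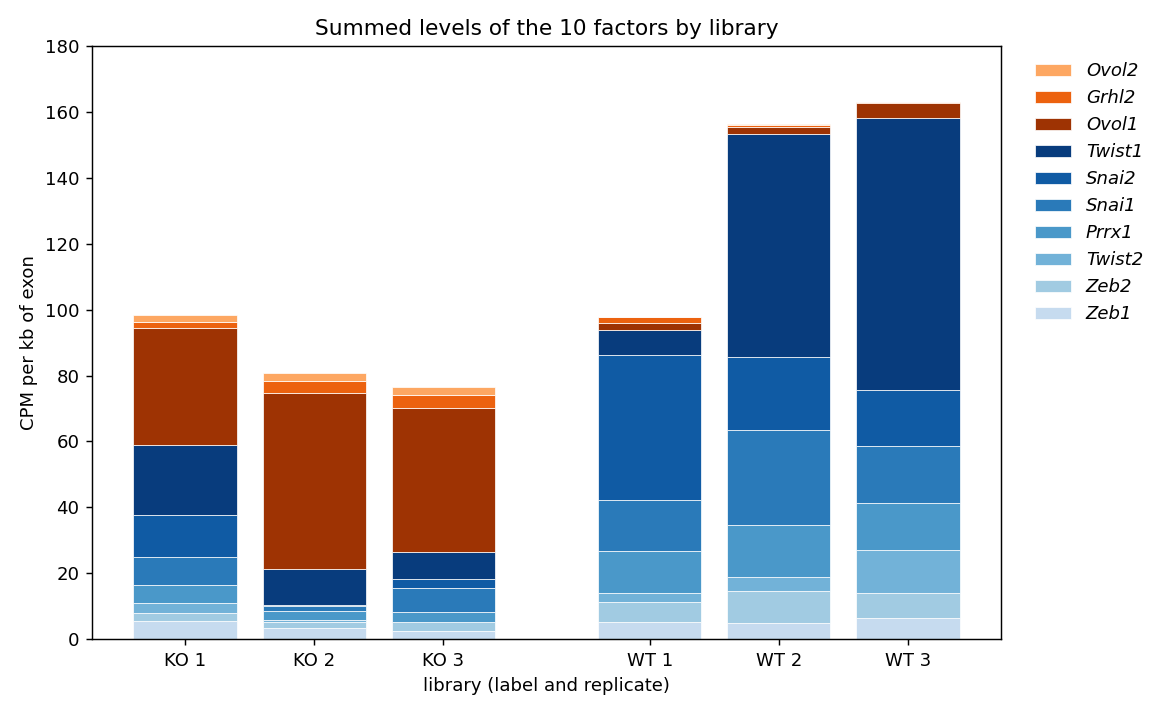
Stacked CPM per kilobase of exon of the 10 factors in each library, blues for mesenchymal and oranges for epithelial factors, libraries labelled mPGES-1 KO at the left and WT at the right. Ovol1 is the largest single band in each mPGES-1 KO library, and Twist1 or Snai2 the largest in each WT library.

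Libraries of 1 label also differed from each other. Among the libraries labelled mPGES-1 KO, replicate 1 was highest for 6 of 7 mesenchymal factors (all but Zeb2) and lowest for 3 of 3 epithelial factors. It also held the highest summed level of 10 fibroblast markers, at 17325 CPM, against 6252 and 9207 CPM across mPGES-1 KO replicates 2 and 3. The summed level of 13 luminal epithelial markers was 55177, 41743 and 47877 CPM across mPGES-1 KO replicates 1, 2 and 3. Much of that sum was Csn3, a milk protein gene, at 32186, 16644 and 18775 CPM in the same order. The top rank of mPGES-1 KO replicate 1 in the luminal sum rests on this 1 gene. Among the libraries labelled WT, replicate 1 was lowest for 5 of 7 mesenchymal factors but highest for Snai2. Of the epithelial factors, Ovol2 had 0 counts in WT replicates 1 and 3, and replicate 1 was highest for Grhl2 and lowest for Ovol1. Its fibroblast marker sum of 12030 CPM lay between the 9023 and 26460 CPM of WT replicates 2 and 3.

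Among marker lists of cell types that a tumour sort could hold, those of luminal cells and pericytes moved with the labels. Of 13 luminal epithelial markers 6 rose and 10 did not overlap between the groups, and their sum was 41743 to 55177 CPM in mPGES-1 KO, against 12845 to 20488 CPM in WT libraries, with no marker at 0 in any library. Of all tested genes 1.20% were called higher and 12.2% lay higher in mPGES-1 KO with no overlap. Csn3 and Wfdc18, named after their values were seen, were large parts of the luminal sum and did not pass. Csn3 averaged 22535 CPM in mPGES-1 KO and 5679 CPM in WT libraries (adjusted p = 0.0667, edgeR). Wfdc18 averaged 7316 and 6888 CPM (adjusted p = 0.945, edgeR). The lists are not independent of those described further on: 7 of the 13 luminal markers (Cdh1, Cldn3, Cldn7, Epcam, Krt8, Krt18 and Krt19) are also junction genes, and Elf5 is also among the other epithelial factors. Of 10 pericyte markers 8 fell and 10 did not overlap, with sums of 174 to 324 CPM in mPGES-1 KO, against 3025 to 7421 CPM in WT libraries, again with none at 0, where 1.56% of all tested genes were called lower and 15.7% lay lower with no overlap. Of 10 fibroblast markers Dpp4 rose, Thy1 fell and 7 overlapped, with sums of 6252 to 17325 CPM in mPGES-1 KO, against 9023 to 26460 CPM in WT libraries. Thy1, Col1a1, Col1a2 and Col3a1 of this list are also among the 20 mesenchymal genes. Pdgfra, which marks fibroblasts, averaged 101 ± 44.7 CPM in mPGES-1 KO and 93.3 ± 67.3 CPM in WT libraries (SD, n = 3 each; adjusted p = 0.951, edgeR). Basal and myoepithelial markers, cells that also express Snai2, overlapped for each of the 4 tested, with sums of 97.9 to 229 CPM in mPGES-1 KO and 47.9 to 139 CPM in WT libraries, where Cdh3 and Oxtr were at 0 in some libraries. Endothelial sums were 11.4 to 79.9 CPM in mPGES-1 KO and 15.6 to 91.0 CPM in WT libraries, with Tie1 and Cdh5 at 0 in some, and leukocyte sums were 262 to 1100 CPM in mPGES-1 KO and 182 to 537 CPM in WT libraries. The part of these markers in the levels of the 10 factors, and of the gene lists that follow, was not tested.

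**Figure D4:**
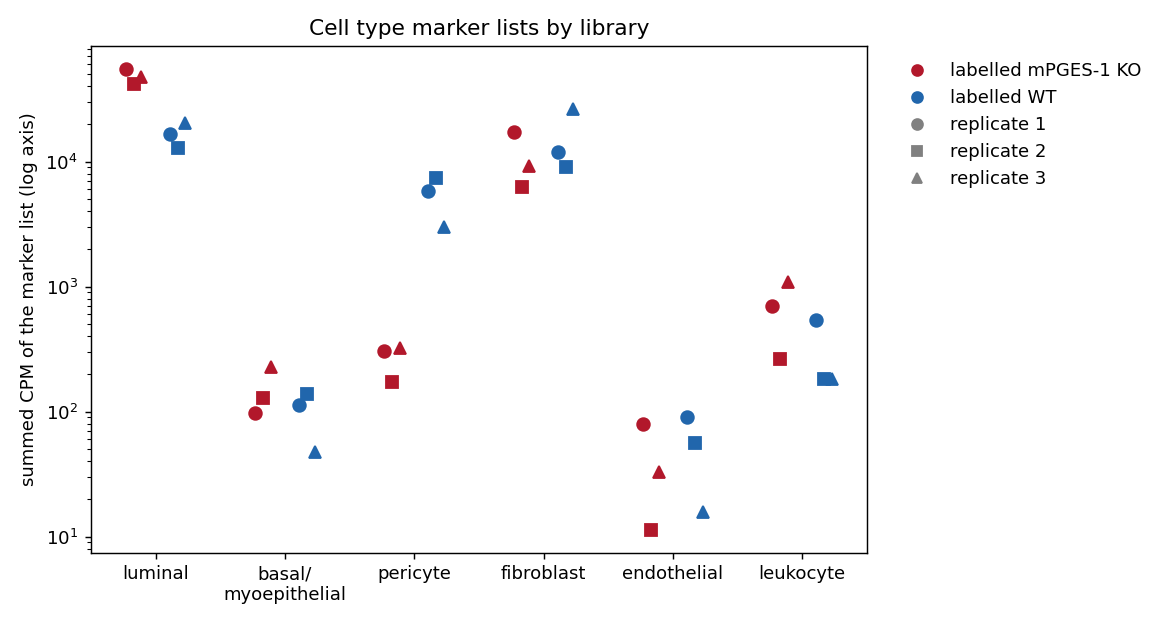
Summed CPM of 6 cell type marker lists in each library, on a log axis, mPGES-1 KO in red left of WT in blue, marker shape by replicate number. The luminal sums (41743 to 55177 CPM in mPGES-1 KO, 12845 to 20488 CPM in WT) and pericyte sums (174 to 324 CPM in mPGES-1 KO, 3025 to 7421 CPM in WT) separate the labels, and the sums of the other lists overlap.

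Among 14 other EMT-linked factors, 12 were tested and 2 fell, against 1.56% of all tested genes called lower. Tcf3, which encodes the E proteins that pair with TWIST, was at 26.4, 30.9 and 26.5 CPM across mPGES-1 KO replicates 1, 2 and 3, against 78.9, 87.5 and 112 CPM in WT replicates 1, 2 and 3 (log2 fold change -1.74 ± 0.28, adjusted p = 0.0281, edgeR). The group means of Tbx2, a T-box repressor, were 4.92 ± 3.15 CPM in mPGES-1 KO and 139 ± 104 CPM in WT libraries (-4.83 ± 0.86, adjusted p = 0.0336). The other E protein genes did not pass: Tcf4 was at -1.35 ± 0.40 (adjusted p = 0.116), and Tcf12, named after its value was seen, at 0.27 ± 0.23 (0.599). Prrx2, the paralog of Prrx1, was uneven in WT, at 40.8, 14.2 and 17.1 CPM in mPGES-1 KO and 66.3, 33.5 and 290.0 CPM in WT libraries (adjusted p = 0.160). Sox4, which shares 54.6% of its exonic bases with an opposite-strand transcript, was at -1.70 ± 0.40 (adjusted p = 0.0691). The list median was -1.58. The fit without WT replicate 1 also called 2, and edgeR called 0 without any 1 of the other 5 libraries. There 5 to 8 genes of the list had an unadjusted p under 0.05 in edgeR. So did 2352 to 3084 of all 17322 to 17781 tested genes.

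Snai3 and Foxc2, singled out after their values were seen, ran to opposite ends of that list without passing. Snai3, the third SNAIL family gene, had 277, 144 and 45 counts in mPGES-1 KO replicates 1, 2 and 3, against 0, 27 and 0 in WT replicates 1, 2 and 3 (adjusted p = 0.296). Its log2 fold change was 4.66 ± 2.15, where those of Snai1 and Snai2 were negative. Foxc2, a forkhead factor, was at 0, 0.963 and 0 CPM in mPGES-1 KO, against 15.1, 69.3 and 8.61 CPM in WT libraries (adjusted p = 0.103, edgeR).

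On the epithelial side, 4 of 14 tested other factors rose and all 14 log2 fold changes were positive, with a median of 1.18, against 1.20% of all tested genes called higher and a median of -0.04. Klf5, a Krüppel-like factor of epithelial proliferation, was at 89.05, 144 and 128 CPM across mPGES-1 KO replicates 1, 2 and 3, against 16.4, 22.04 and 23.7 CPM in WT replicates 1, 2 and 3 (2.54 ± 0.32, adjusted p = 0.0171, edgeR). The epithelial ETS factors Elf3 (2.45 ± 0.39, adjusted p = 0.0275) and Ehf (2.20 ± 0.39, adjusted p = 0.0336) also rose. Tfap2c was at 0.14 ± 0.51 (adjusted p = 0.924). The count of 4 was 0 without mPGES-1 KO replicate 2, mPGES-1 KO replicate 3 or WT replicate 2, where 7 to 8 had an unadjusted p under 0.05 in edgeR, 1 without WT replicate 3 and 2 without mPGES-1 KO replicate 1.

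Of 24 epithelial junction and polarity genes, which SNAI and ZEB factors hold down or OVOL and GRHL2 factors keep up in epithelial cells, 7 rose, 21 lay higher in mPGES-1 KO with no overlap, and the median was 1.83. Of all tested genes 1.20% were called higher and 12.2% lay higher with no overlap. Epcam, an epithelial adhesion molecule, was at 4682, 4895 and 3740 CPM across mPGES-1 KO replicates 1, 2 and 3, against 632, 338 and 480 CPM in WT replicates 1, 2 and 3 (3.20 ± 0.35, adjusted p = 0.0143, edgeR). Cdh1, which encodes E-cadherin, averaged 203 ± 28.9 CPM in mPGES-1 KO and 42.3 ± 15.8 CPM in WT libraries (2.26 ± 0.33, adjusted p = 0.0233). Ocln, the tight junction protein occludin, averaged 147 ± 21.5 CPM in mPGES-1 KO and 21.6 ± 8.31 CPM in WT libraries. Crb3, a polarity protein, averaged 73.7 ± 10.5 CPM in mPGES-1 KO and 18.7 ± 1.32 CPM in WT libraries. Marveld2, Krt8 and Krt18 were the others that rose. Of the 7 risen genes 6 had a promoter window, and each of the 6 held CACCTG, Cdh1 being the one with no window in the table. Over the whole list, risen or not, 15 of the 18 genes with a window held it. The count of 7 was 4 without mPGES-1 KO replicate 1 or WT replicate 3, and 12 without WT replicate 1. It was 0 without mPGES-1 KO replicate 2, mPGES-1 KO replicate 3 or WT replicate 2. In those last fits 18 to 20 had an unadjusted p under 0.05 in edgeR, as did 2352 to 2975 of all 17322 to 17781 tested genes.

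Of 20 mesenchymal genes 5 fell, 11 lay lower in mPGES-1 KO with no overlap, and the median was -1.51, against 1.56% of all tested genes called lower and 15.7% lower with no overlap. Thy1, a fibroblast surface glycoprotein, averaged 22.9 ± 11.8 CPM in mPGES-1 KO and 213 ± 54.8 CPM in WT libraries (-3.22 ± 0.44, adjusted p = 0.0184, edgeR). Acta2, the smooth muscle actin of myofibroblasts and pericytes, averaged 125 ± 62.3 CPM in mPGES-1 KO and 1119 ± 597 CPM in WT libraries (adjusted p = 0.0345). Sparc and Mmp14 fell as well, with log2 fold changes of -2.18 and -1.82. The collagen genes Col1a1 (-2.50 ± 0.68, adjusted p = 0.1003) and Col3a1 (-1.17 ± 0.58, adjusted p = 0.338) did not pass, and Col3a1 overlapped between the groups. The count of 5 was 2 without mPGES-1 KO replicate 1 or WT replicate 3. It was 0 without mPGES-1 KO replicate 2, mPGES-1 KO replicate 3 or WT replicate 2. In those last fits 8 to 9 had an unadjusted p under 0.05 in edgeR, as did 2352 to 2975 of all 17322 to 17781 tested genes.

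Corepressors and turnover factors of SNAI and ZEB proteins made up the last list. Of 17 genes 1 fell, against 1.56% of all tested genes called lower, and the median was 0.25. The groups did not overlap for 6 of the 17, near the 27.9% of all tested genes. DESeq2 called 3 of the list higher and 2 lower, and limma-voom 2 higher and 1 lower. Over all tested genes DESeq2 called 1057 higher and 1178 lower of 17858, and limma-voom 977 and 967 of 16543. Ajuba, a LIM adaptor through which SNAI proteins recruit partners, was at 5.15, 5.28 and 4.81 CPM across mPGES-1 KO replicates 1, 2 and 3, against 63.1, 123 and 32.6 CPM in WT replicates 1, 2 and 3 (-3.85 ± 0.54, adjusted p = 0.0201, edgeR). The call was lost without mPGES-1 KO replicates 1, 2 or 3 and without WT replicate 2. Ctbp1, the corepressor of ZEB proteins, was at -0.60 ± 0.44 (adjusted p = 0.541), Hdac2 at 0.74 ± 0.57 (0.556) and Fbxl5, a ubiquitin ligase subunit, at 1.01 ± 0.26 (0.0821).

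**Figure D5:**
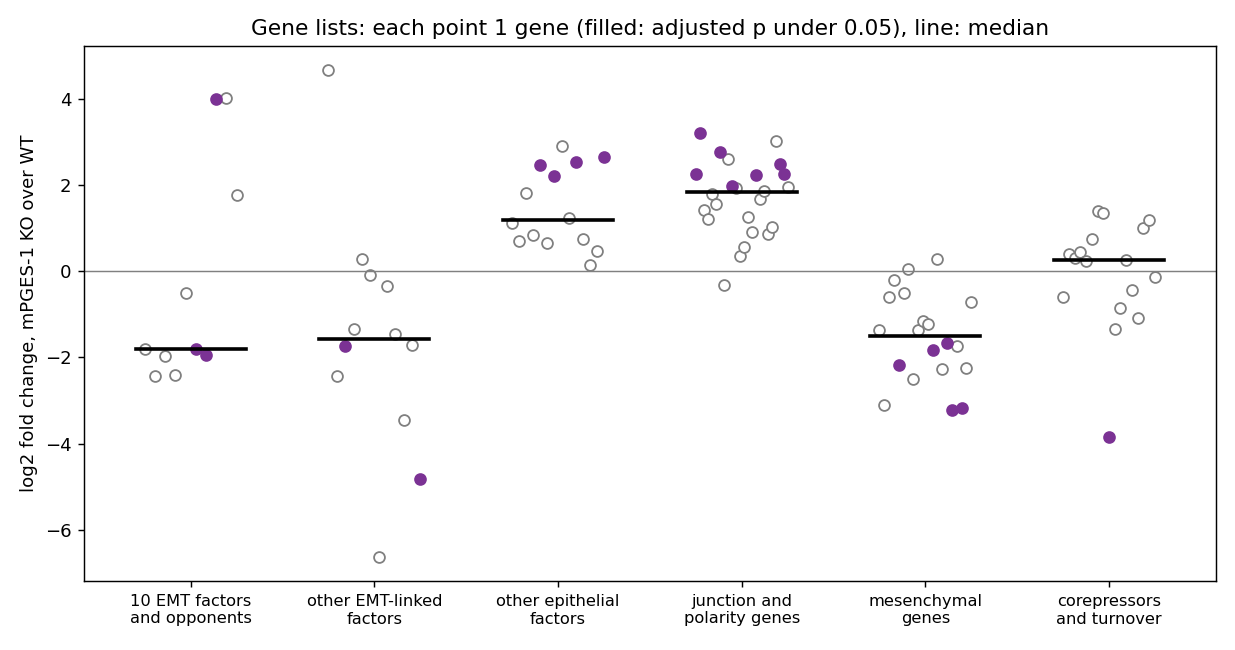
Log2 fold changes, mPGES-1 KO over WT, of every tested gene in 6 lists, each point a gene (filled where the adjusted p was under 0.05) and each line the list median. The medians are -1.58 for other EMT-linked factors, 1.18 for other epithelial factors, 1.83 for junction and polarity genes, -1.51 for mesenchymal genes and 0.25 for corepressors and turnover.

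For each factor with a mean of at least 5 CPM, the genes with the most similar pattern were found by Pearson's r of log2(CPM + 1) over the 6 libraries, among 11337 tested genes. Over so few libraries, which differ by label, many genes reach a high r, so these names are a description. Closest to Ovol1 were Sowahc, Ifrd1 and Rb1cc1 (r = 0.996, 0.995 and 0.994), and closest to Grhl2 were Nr1d2, Ndfip2 and Trip11 (0.997, 0.996 and 0.995). Closest to Zeb2 were Eva1b, Nr1h3 and A4galt (0.998 each), and closest to Prrx1 were Lzts2, Rasl11a and Hic1 (0.999, 0.997 and 0.996). The nearest gene to Snai1 was Extl3, to Snai2 Bgn, to Twist1 Irak1, to Twist2 Rgmb and to Zeb1 Gm36962, with r from 0.992 to 0.995. Bgn, the matrix proteoglycan biglycan, averaged 531 CPM in mPGES-1 KO and 1003 CPM in WT libraries.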

How the data were processed

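Per the labels' protocols, cDNA from the sorted cells was made with a template-switching kit for very low input, amplified by 16 PCR cycles and read from 1 end over 75 cycles. Neither strand nor molecular identifiers are kept, so floors reflect counting error alone. The authors deposited whole-number counts for each gene symbol without normalization. FastQC 0.11.5, STAR and mm10 appear in the submitters' processing notes. A counting program and an annotation were not given in the sources used here. No pair of libraries was identical.

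The test was edgeR 4.0.16 in R 4.3.3 (filterByExpr, TMM, robust glmQLFit, two-sided, Benjamini-Hochberg over 16543 genes), with no covariate. The SE is the absolute log2 fold change over the square root of F. CPM uses TMM-scaled totals. Alternatives included DESeq2 1.42.0, limma-voom 3.58.1, other scalings and filters, a replicate block and each library left out. Positions and exonic lengths come from GENCODE M21, each length being the union of the exons of all annotated transcripts of the gene. The 10 members and all lists were chosen with earlier results of these data known. Named were the members, called genes or the 3 most abundant of each other list, the first 3 of each marker list, and the 3 genes most like each member. A few genes that this rule picks are not reported here. Nothing in the labels says that libraries come from separate animals; the p-values then cover only library-to-library spread, which may be technical.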

Additional observations from a re-analysis of the deposited data

How the results depend on the processing

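Over 13 alternatives no member changed direction. In each alternative the median over all tested genes lay within 0.1 of its value in the edgeR test used throughout, on the log2 scale. Of the 10 factors, 3 were called under other scalings, other filters and DESeq2, and 5 under limma-voom, which added Snai1 (-2.61) and Grhl2 (2.49). Leaving out 1 library gave 0 to 4 called factors. The log2 fold change then ran from 3.82 to 4.47 for Ovol1, from -1.96 to -1.57 for Zeb2, from -2.29 to -1.76 for Prrx1, from -2.45 to -1.49 for Twist1, from -4.35 to -1.81 for Snai2 and from -4.38 to -1.49 for Twist2. Genes called over the whole table were 2235 in DESeq2 and 1944 in limma-voom, against 456, and 0 to 568 with 1 library left out.

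Called members of the lists in DESeq2 and limma-voom were 7 and 4 of the other EMT-linked factors, 7 and 7 of the other epithelial factors, 19 and 18 of the junction genes, 10 and 8 of the mesenchymal genes, and 5 and 3 of the corepressor and turnover genes, of which 3 and 2 were higher. Beside these stand 2235 of 17858 tested genes called in DESeq2 and 1944 of 16543 in limma-voom. With genes required to reach 1 CPM in 3 libraries, edgeR called 12 junction genes, and DESeq2 size factors in edgeR called 3 mesenchymal genes. With 1 library left out these counts ran from 0 to 2, 0 to 5, 0 to 12, 0 to 4 and 0 to 1 in the same order of lists.

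With the replicate number as a block, edgeR called 0 of 16543 genes, with 2716 at an unadjusted p under 0.05. It called 0 of the 10 factors (6 at an unadjusted p under 0.05) and 0 members of each list (7, 7, 19, 8 and 6). Ovol1 was then at 4.08 (adjusted p = 0.0803), Zeb2 at -1.82 (0.122) and Prrx1 at -2.01 (0.103). Deviations from the group means correlated at -0.0846, 0.0307 and -5.19e-04 between libraries of the same number. These values cannot show whether libraries of the same number share a step of processing.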
